A study of Mus musculus with 28 samples.

Results

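The inhibitory interneuron genes described here are Gad1, Gad2, Slc32a1, Sst, Pvalb, Vip, Npy, Reln, Lhx6 and Calb2, 10 of the 55487 Ensembl gene IDs counted in mouse hippocampus. They were chosen by symbol, and all 10 passed the filter on low counts in both cohorts. Polyadenylated RNA was sequenced from hippocampi of mice 9 months of age that had been through behaviour tests. The Ripk1 cohort held Ripk1 D138N 5xFAD, 5xFAD, Ripk1 D138N (both alleles mutant) and WT mice, and the Zbp1 cohort held Zbp1 KO 5xFAD, 5xFAD, Zbp1 KO (both alleles deleted) and WT mice, with 3 libraries per genotype and 24 in all. Ripk1 D138N removes the kinase activity of RIPK1, ZBP1 is a sensor of nucleic acids that signals to RIPK kinases, and the 5xFAD line carries mutant human transgenes driven by the Thy1 promoter, which is active in neurons. Each cohort had its own WT and 5xFAD libraries, and 4 single ZBP1 immunoprecipitation libraries from 5xFAD and WT hippocampus complete the series. Whether the 3 libraries of a genotype stem from 3 mice is not stated in the labels, and p-values therefore refer to library-to-library spread, which may be technical.

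Inhibitory interneurons are a minority of hippocampal neurons and release GABA, which restrains the excitatory pyramidal and granule cells. GABA is made from glutamate by the glutamate decarboxylases GAD67 (Gad1) and GAD65 (Gad2) and is loaded into synaptic vesicles by the transporter VGAT (Slc32a1). Interneurons fall into classes marked by a neuropeptide (Sst, Vip, Npy), a calcium-binding protein (Pvalb, Calb2), the extracellular glycoprotein reelin (Reln) or the transcription factor of the medial ganglionic eminence Lhx6. Calb2 is also made by mossy cells of the mouse dentate gyrus, and Reln by Cajal-Retzius cells, so neither is private to interneurons.

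The promoter windows of 4 members are shown because the results turn on these genes: Gad1, Gad2 and Reln were called lower in 5xFAD hippocampi of the Ripk1 cohort, and Sst had its lowest log2 fold changes in the Zbp1 cohort. Each window runs from 250 bases before to 50 bases after the start site in RefSeq on GRCm38.p6, 5′ to 3′ on the strand of the gene. The windows are Gad1 at chr2:70561879-70562178 (plus strand), Gad2 at chr2:22622077-22622376 (plus strand), Reln at chr5:22344656-22344955 (minus strand) and Sst at chr16:23890795-23891094 (minus strand). Capitals mark a match on either strand to TGACGTCA (the cyclic AMP response element, which reads alike on both strands), TATAAA (the TATA box) or TAATTA (a homeodomain core), and no matches overlapped in the windows printed.
Gad1: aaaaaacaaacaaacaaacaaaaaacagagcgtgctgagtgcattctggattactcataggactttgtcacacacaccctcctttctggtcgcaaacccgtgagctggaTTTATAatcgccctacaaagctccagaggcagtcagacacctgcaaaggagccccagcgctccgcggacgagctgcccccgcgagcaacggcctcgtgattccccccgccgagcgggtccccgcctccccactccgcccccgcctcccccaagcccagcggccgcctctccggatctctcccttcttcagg
Gad2: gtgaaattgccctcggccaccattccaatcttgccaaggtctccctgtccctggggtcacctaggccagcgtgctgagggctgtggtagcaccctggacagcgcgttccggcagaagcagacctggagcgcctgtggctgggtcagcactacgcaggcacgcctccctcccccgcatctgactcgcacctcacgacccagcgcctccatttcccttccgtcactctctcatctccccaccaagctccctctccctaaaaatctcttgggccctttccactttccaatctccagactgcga
Reln: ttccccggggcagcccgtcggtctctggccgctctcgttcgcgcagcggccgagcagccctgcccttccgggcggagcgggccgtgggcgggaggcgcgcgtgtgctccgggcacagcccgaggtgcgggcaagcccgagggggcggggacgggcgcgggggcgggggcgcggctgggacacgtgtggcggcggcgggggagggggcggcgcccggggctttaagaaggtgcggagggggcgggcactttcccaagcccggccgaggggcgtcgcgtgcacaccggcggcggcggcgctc
Sst: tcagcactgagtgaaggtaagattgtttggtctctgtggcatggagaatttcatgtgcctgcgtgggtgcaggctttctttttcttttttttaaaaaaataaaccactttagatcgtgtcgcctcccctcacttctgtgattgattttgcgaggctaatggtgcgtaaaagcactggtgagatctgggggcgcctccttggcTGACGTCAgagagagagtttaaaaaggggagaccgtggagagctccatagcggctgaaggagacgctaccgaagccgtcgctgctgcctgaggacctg
TGACGTCA was present in 1.79% of 32851 promoter windows in the table and in 1 of the 12 windows found for 9 members, that of Sst, while Calb2 was not searched. TATAAA was present in 13.6% of all windows, and among the members in windows of Gad1 and Lhx6 (both on the opposite strand) and Vip. TAATTA was present in 5.29% of all windows and in none of the members' 12. The Gad1 and Gad2 windows, whose genes encode the 2 forms of the same enzyme, had GC contents of 60% and 61.3%, against 80.7% for Reln and 50.3% for Sst.

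Libraries held 16.6 to 44.8 M counts in the Ripk1 cohort and 8.36 to 34.6 M in the Zbp1 cohort, and the members had between 75 counts (Vip, WT 1 of the Zbp1 cohort) and 17541 counts (Gad1, WT 2 of the Ripk1 cohort) in a library. The targeted gene Zbp1 was at 0.351, 0.32 and 0.298 CPM in Zbp1 KO 5xFAD and at 1.87, 1.79 and 3.58 CPM in 5xFAD, while Zbp1 KO had 0, 0 and 0.319 CPM and WT 0, 0.383 and 0.1 CPM, so that the gene told the knockout apart on the 5xFAD background but overlapped without it. Ripk1 D138N is a point mutation that gene counts do not check. CPM are counts scaled to a common library size after TMM normalisation within a cohort. Several libraries stood apart, and the genes that show it were singled out after their values were seen. In the Ripk1 cohort Ripk1 D138N 5xFAD 2 had 78 CPM and WT 2 had 112 CPM of Zic1, a transcription factor from the thalamic and habenular marker list, and the cohort's other 10 libraries had 12.3 to 44.8 CPM. That list, Zic1 included, summed to 349 CPM in WT 2 and 256 CPM in Ripk1 D138N 5xFAD 2. Ripk1 D138N 5xFAD 1 and 3 had sums of 215 and 217 CPM, with 23.8 and 19.3 CPM of Zic1. The sum of Ripk1 D138N 5xFAD 2 exceeded theirs by less than its Zic1 did, so the rest of the list was not higher there. The Ripk1 cohort's 5xFAD 1 had 521 CPM of the activity-regulated gene Fos, against 4.6 to 17.5 CPM in the other 11. In the Zbp1 cohort Malat1, a long RNA kept in the nucleus, stood at 791 CPM in 5xFAD 2 and 994 CPM in WT 2, and the other 10 libraries had 1938 to 2971 CPM. Where leaving 1 of these libraries out made or ended a call, or moved a value the text turns on, the value without it is given as well.

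**Figure D1:**
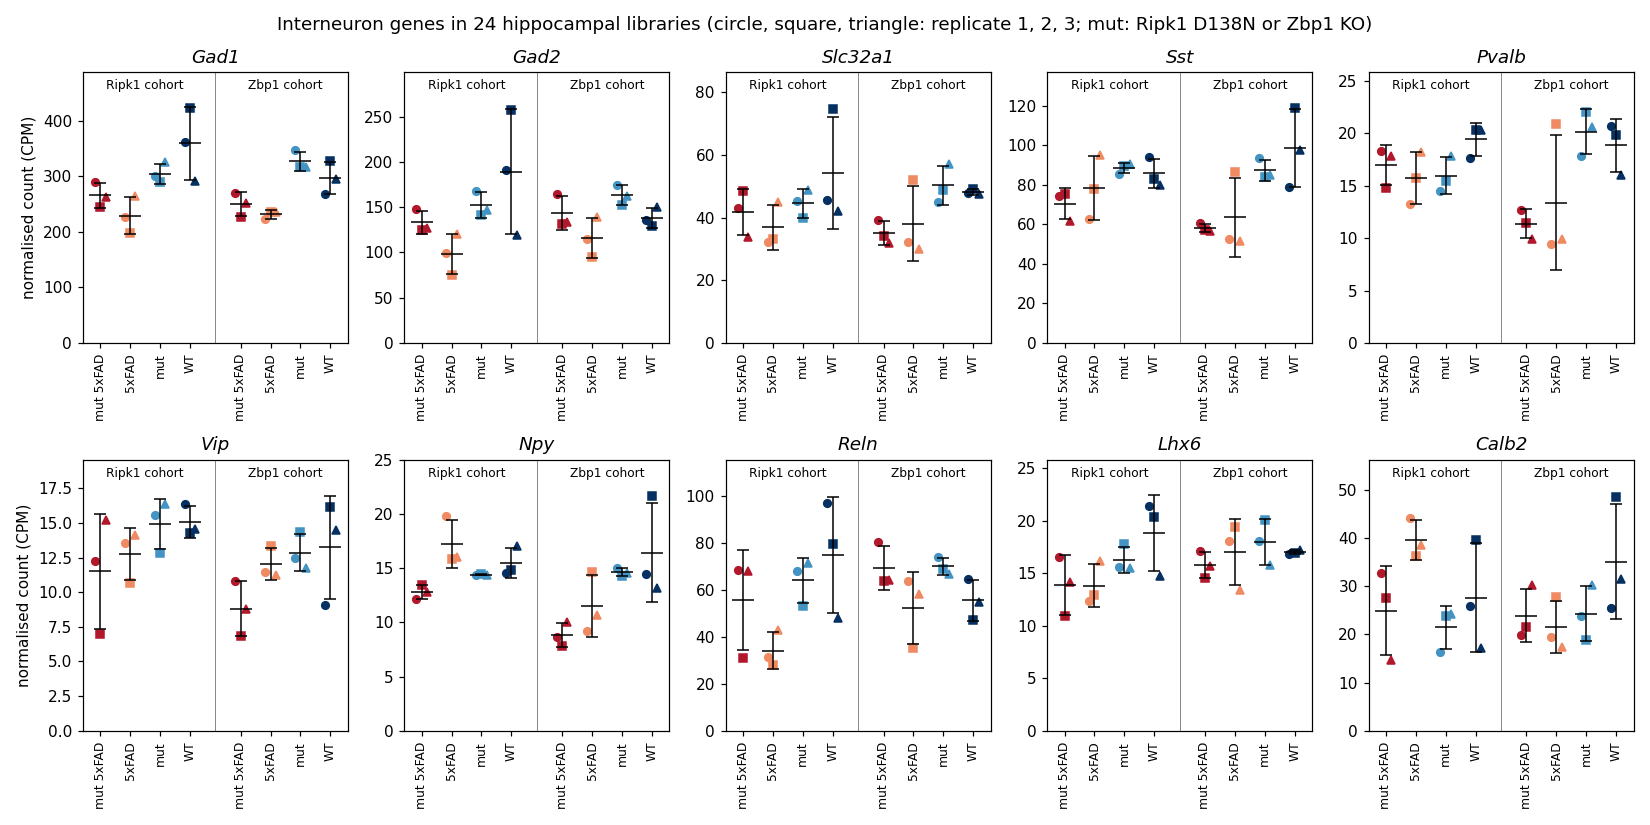
Normalised count (CPM, y axis, from 0) of each of the 10 interneuron genes in every hippocampal library, with Ripk1 cohort groups on the left and Zbp1 cohort groups on the right of each panel. Points are libraries and black bars are mean ± SD (n = 3); Gad1 lay lower in 5xFAD than in WT in both cohorts with no overlap, whereas Calb2 had a mean of 39.7 CPM in 5xFAD and 27.6 CPM in WT of the Ripk1 cohort.

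In the Ripk1 cohort, both GABA-synthesising enzymes and reelin were lower in 5xFAD than in WT, and no member was called higher. Of 10 members, 3 were called lower in edgeR at an adjusted p under 0.05, where 8.02% of the 21376 genes tested were called lower and 16.1% in either direction. DESeq2 called 4, adding Slc32a1, and 20% of all genes. At an unadjusted p under 0.05 in edgeR there were 6 members and 29.9% of all genes. The median log2 fold change was −0.37 over the members and 0.02 over all genes. In whole hippocampus, fewer interneurons, less RNA per interneuron, more RNA from other cells and a shift in dissection cannot be told apart.

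Gad1 had 226, 198 and 264 CPM in 5xFAD libraries, against 362, 423 and 292 CPM in WT libraries. Every 5xFAD library lay below every WT library. The log2 fold change was −0.65 ± 0.13 (SE, edgeR adjusted p = 0.00433), and Gad1 stayed called when any of the cohort's 12 libraries was left out, with log2 fold changes of −0.76 to −0.52.

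Gad2 had 99.1, 75.4 and 120 CPM in 5xFAD libraries, against 191, 258 and 119 CPM in WT libraries. The groups overlapped, because WT 3 lay between 5xFAD 1 and 5xFAD 3. The log2 fold change was −0.94 ± 0.22 (edgeR adjusted p = 0.0111), and without 5xFAD 2 it was −0.78 (edgeR adjusted p = 0.0585) and no longer called. The vesicular transporter Slc32a1 had 32.2, 33.3 and 45.1 CPM in 5xFAD libraries, against 45.7, 74.9 and 42.2 CPM in WT libraries. Its values overlapped and it was not called, with a log2 fold change of −0.55 ± 0.20 (edgeR adjusted p = 0.0831). Leaving out WT 3 or 5xFAD 3, the libraries nearest to the other group, made it a call (−0.69, edgeR adjusted p = 0.047, and −0.73, 0.043), at 12.9% and 14.9% of all genes called. WT 2, the library high in Zic1, had the highest level of all 3 GABA genes. Without WT 2 the log2 fold changes were −0.52 for Gad1 (edgeR adjusted p = 0.0191), −0.66 for Gad2 (0.048) and −0.25 for Slc32a1 (0.374), and without both WT 2 and Ripk1 D138N 5xFAD 2 Gad2 was at an adjusted p of 0.05004.

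Reln had 31.3, 27.9 and 42.8 CPM in 5xFAD libraries, against 96.7, 79.3 and 48.1 CPM in WT libraries. The groups did not overlap, and WT 3 was the WT library nearest to 5xFAD. The log2 fold change was −1.13 ± 0.29 (edgeR adjusted p = 0.0184), and the call was lost without WT 1 (−0.89, edgeR adjusted p = 0.0954), WT 2 (−1.09, 0.0505), 5xFAD 1 (−1.08, 0.061) or 5xFAD 2 (−1.01, 0.0863). Without WT 2 and Ripk1 D138N 5xFAD 2 together it was called (−1.07, edgeR adjusted p = 0.0133). Of the markers of Cajal-Retzius cells, another source of reelin, 0 of 3 tested were called by edgeR and 0 had an unadjusted p under 0.05, and their summed level was 9.14 to 12.4 CPM in 5xFAD and 7.29 to 14 CPM in WT.

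The remaining 6 members gave no call in the Ripk1 cohort. Lhx6 had 12.3, 13 and 16.1 CPM in 5xFAD libraries, against 21.5, 20.4 and 14.7 CPM in WT libraries, a log2 fold change of −0.45 ± 0.17 (edgeR adjusted p = 0.0998). It became a call only without WT 3 (−0.58, edgeR adjusted p = 0.0417) among the 12 libraries left out. Vip had 13.6, 10.6 and 14.1 CPM in 5xFAD, below the 16.4, 14.3 and 14.6 CPM in WT in every library, yet its log2 fold change of −0.24 ± 0.22 was close to its error. Pvalb had a log2 fold change of −0.30 ± 0.13 and Sst one of −0.12 ± 0.13. Npy (0.15 ± 0.11) and Calb2 (0.52 ± 0.29) had positive values that did not pass the test, and without WT 2 Calb2 was at 0.87 (edgeR adjusted p = 0.0704). Gad1, Vip and Reln were the 3 members whose 5xFAD libraries all lay below WT, and 17.1% of all genes did so.

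**Figure D2:**
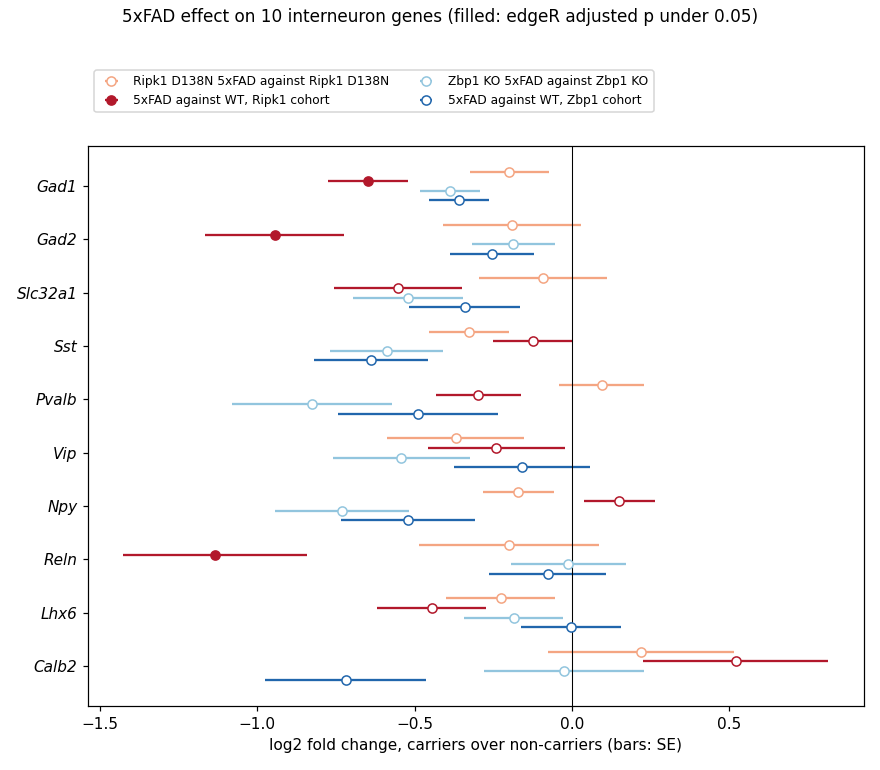
Log2 fold change of each interneuron gene (rows) between 5xFAD carriers and non-carriers of the same background, with bars of 1 SE from edgeR, where red shades are the Ripk1 cohort and blue shades the Zbp1 cohort, and filled points had an adjusted p under 0.05. Gad1 had a negative value in all 4 comparisons, from −0.65 to −0.20, whereas Reln was at −1.13 in 5xFAD against WT of the Ripk1 cohort and between −0.20 and −0.01 in the other 3.

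In the Zbp1 cohort all 10 members had negative log2 fold changes in 5xFAD against WT, with a median of −0.35 against −0.00 over all genes, but none was called in edgeR. That test called 0.127% of 21274 genes lower and 3.13% in either direction. At an unadjusted p under 0.05 there were 4 members and 12% of all genes, and DESeq2 called 2 members, Gad1 and Sst, and 4.86% of all genes.

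Gad1 had 222, 237 and 235 CPM in 5xFAD libraries, against 268, 327 and 296 CPM in WT libraries. The groups did not overlap, as for 5.4% of genes in this direction, and Gad1 was the only member for which this held. The log2 fold change was −0.36 ± 0.09 (edgeR adjusted p = 0.0592). Sst, the peptide of dendrite-targeting interneurons, had 52.6, 86.4 and 51.6 CPM in 5xFAD, against 79.1, 119 and 97.9 CPM in WT. 5xFAD 2 lay above WT 1, and the log2 fold change was −0.64 ± 0.18 (edgeR adjusted p = 0.0857).

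The library 5xFAD 2 of the Zbp1 cohort, which was low in Malat1, had the highest 5xFAD value of 8 members and the lowest of Gad2 and Reln. Pvalb had 9.44, 20.9 and 9.91 CPM in 5xFAD, against 20.7, 19.9 and 16 CPM in WT. Slc32a1 had 32.3, 51.9 and 30.1 CPM in 5xFAD, against 47.9, 49.3 and 47.6 CPM in WT. Without 5xFAD 2, 5 members were called lower by edgeR: Sst (−0.93, adjusted p = 0.000573), Pvalb (−0.96, 0.00428), Slc32a1 (−0.63, 0.00751), Gad1 (−0.38, 0.04) and Calb2 (−0.95, 0.0491). The share of all genes called in either direction was 4.96% in that fit. Without both low-Malat1 libraries, 5xFAD 2 and WT 2, the calls were Sst, Pvalb and Slc32a1, with 5.09% of all genes called, and Gad1 was at −0.29 (edgeR adjusted p = 0.0931). Leaving out WT 1, the library of lowest depth, gave 1 call, Gad1 (−0.43, edgeR adjusted p = 0.0398), with 2.21% of all genes called. The part of RNA quality, read here from Malat1 alone, in these values was not tested.

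Reln and Lhx6 differed little from WT in the Zbp1 cohort. Reln had 63.5, 35 and 58.3 CPM in 5xFAD, against 64.5, 47 and 54.7 CPM in WT, a log2 fold change of −0.08 ± 0.19. Lhx6 had 18.1, 19.5 and 13.4 CPM in 5xFAD, against 16.9, 17 and 17.3 CPM in WT, a log2 fold change of −0.00 ± 0.16. Gad2 (−0.25 ± 0.13), Vip (−0.16 ± 0.22), Npy (−0.52 ± 0.21) and Calb2 (−0.72 ± 0.26) completed the set, with overlapping libraries in each. Without 5xFAD 2 Gad2 was at −0.13, and without WT 2 Npy was at −0.26, Calb2 at −0.41 and Vip at 0.01.

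**Figure D3:**
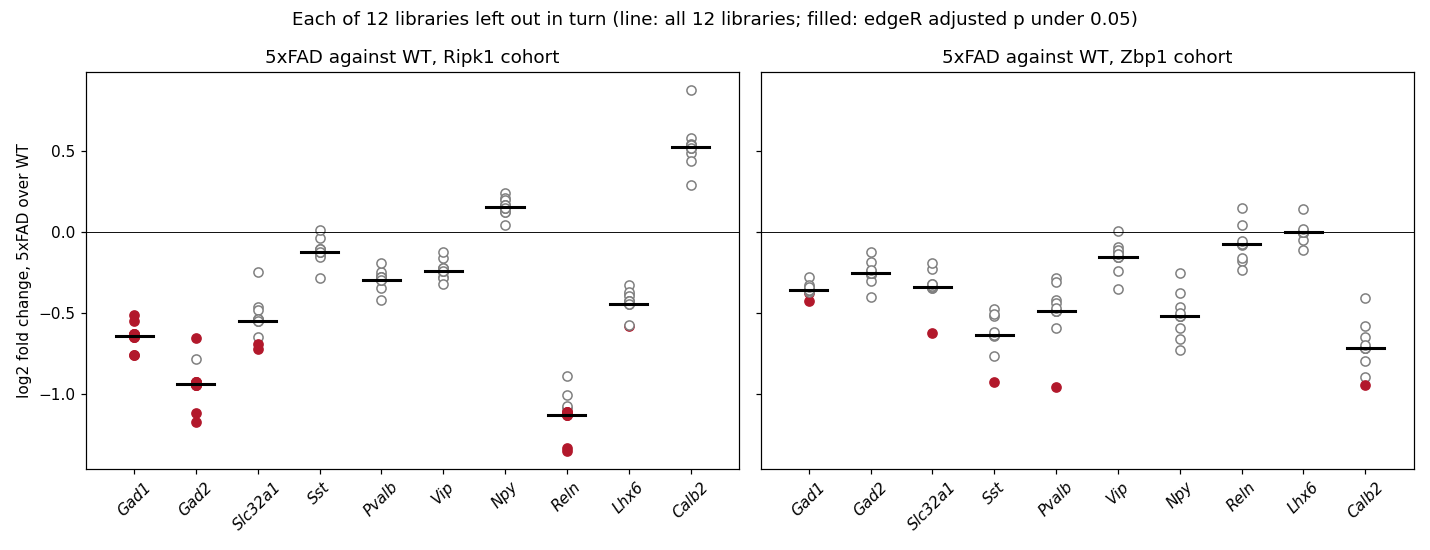
Log2 fold change of 5xFAD over WT for each interneuron gene when each of the 12 libraries of a cohort was left out in turn (points), beside the value with all 12 (black line); filled points had an edgeR adjusted p under 0.05. In the Ripk1 cohort the 12 values of Gad1 were all called, and in the Zbp1 cohort 1 of 12 values of Sst, Pvalb, Slc32a1 and Calb2 was called, the one without 5xFAD 2.

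The 5xFAD effect was also tested on the mutant backgrounds, which share no library with the comparisons above. In Zbp1 KO 5xFAD against Zbp1 KO all 10 log2 fold changes were negative, with a median of −0.45, and 6 members lay below without overlap where 10.6% of genes did. None was called in edgeR, which called 1.23% of all genes. At an unadjusted p under 0.05 there were 6 members and 7.59% of all genes, and DESeq2 called 3 (Gad1, Pvalb and Npy) and 2.4% of all genes. Pvalb had 12.7, 11.5 and 9.96 CPM in Zbp1 KO 5xFAD, against 17.8, 22.1 and 20.6 CPM in Zbp1 KO, a log2 fold change of −0.82 ± 0.25 (edgeR adjusted p = 0.217). Npy had 8.67, 7.8 and 10 CPM in Zbp1 KO 5xFAD, against 15.1, 14.3 and 14.6 CPM in Zbp1 KO, a log2 fold change of −0.73 ± 0.21 (edgeR adjusted p = 0.181).

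Sst, Vip, Slc32a1 and Gad1 were the other members of the 6. Sst had 60.6, 57.4 and 56.4 CPM in Zbp1 KO 5xFAD, against 93.6, 84.1 and 84.9 CPM in Zbp1 KO, a log2 fold change of −0.59 ± 0.18 (edgeR adjusted p = 0.209). Gad1 had 271, 227 and 253 CPM in Zbp1 KO 5xFAD, against 347, 317 and 318 CPM in Zbp1 KO, a log2 fold change of −0.39 ± 0.09 (edgeR adjusted p = 0.0733). Slc32a1 was at −0.52 ± 0.18 and Vip at −0.54 ± 0.22. Fitted on the 6 libraries of the contrast alone, Gad1, Slc32a1, Sst, Pvalb and Npy were called (edgeR adjusted p of 0.000216 for Sst to 0.0115 for Slc32a1), as were 4.41% of 19868 genes. In the fit of all 12 libraries the spread is also estimated from WT 2 and 5xFAD 2, the libraries low in Malat1. Without 5xFAD 2 edgeR called 4 members (Gad1, Slc32a1, Sst and Pvalb), without WT 2 it called Gad1 (adjusted p = 0.0499), and without both it called the same 5 as the fit on 6 libraries. The shares of all genes called there were 1.74%, 1.26% and 2.65%. Zbp1 KO 3 had the most Zic1 of the cohort, 64.2 CPM. Reln (−0.01 ± 0.18) and Calb2 (−0.03 ± 0.25) were within their errors of 0, Gad2 was at −0.19 ± 0.13 and Lhx6 at −0.19 ± 0.16.

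In Ripk1 D138N 5xFAD against Ripk1 D138N, 8 of 10 values were negative, with a median of −0.20. None was called in edgeR, which called 3.37% of all genes, and DESeq2, which called 5.67%, also called no member. At an unadjusted p under 0.05 there were 1 member (Sst) and 14.3% of all genes. Gad1 had 289, 244 and 263 CPM in Ripk1 D138N 5xFAD, against 300, 290 and 325 CPM in Ripk1 D138N. The highest carrier library lay just below the lowest non-carrier library, and the log2 fold change was −0.20 ± 0.13. Sst had 74.6, 75.5 and 61.6 CPM in Ripk1 D138N 5xFAD, against 85.5, 89.6 and 90.4 CPM in Ripk1 D138N, a log2 fold change of −0.33 ± 0.13 (edgeR adjusted p = 0.235). With Npy, these were the 3 members below without overlap, as were 7.87% of genes. Gad2 was at −0.19 ± 0.22, Reln at −0.20 ± 0.29, Slc32a1 at −0.09 ± 0.20, Vip at −0.37 ± 0.22 and Lhx6 at −0.23 ± 0.17, while Pvalb was at 0.09 ± 0.13 and Calb2 at 0.22 ± 0.30. Several of these values turn on Ripk1 D138N 5xFAD 2, the library high in Zic1, and without it Reln was at 0.10, Vip at −0.11, Lhx6 at −0.07, Gad1 at −0.13, Gad2 at −0.14 and Slc32a1 at −0.20.

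Averaged over both backgrounds, a contrast added after the data were seen that sets 6 carrier against 6 non-carrier libraries, Gad1 was lower in both cohorts. In the Ripk1 cohort the 3 calls were Gad1 (−0.42 ± 0.09, edgeR adjusted p = 0.00493), Gad2 (−0.57 ± 0.15, 0.0207) and Reln (−0.67 ± 0.20, 0.0359), where 9.21% of genes were called lower. All 6 carrier libraries had less Gad1 than all 6 non-carrier libraries of that cohort, as for 2.62% of genes. In the Zbp1 cohort the 3 calls were Gad1 (−0.37 ± 0.07, edgeR adjusted p = 0.00314), Sst (−0.61 ± 0.13, 0.0093) and Npy (−0.63 ± 0.15, 0.0255), where 0.799% of genes were called lower. Gad1 was thus the 1 member called in both averages. Across the 4 groups of each cohort, the lowest mean belonged to a 5xFAD carrier group for 9 of 10 members in the Ripk1 cohort, where it did for 50.5% of all genes, and for 10 of 10 in the Zbp1 cohort, where it did for 52.9%. In 5 of 60 neighbouring pairs in that order the libraries did not overlap, and over all genes this held for 8.85% of such pairs (Ripk1 cohort) and 7.06% (Zbp1 cohort).

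Genes common to all neurons, taken as a sum, also lay lower in carriers, which bears on how the members are read. The summed level of 11 pan-neuronal genes was 6491 to 7111 CPM in 5xFAD and 7712 to 7931 CPM in WT of the Ripk1 cohort, and 6205 to 6747 CPM in 5xFAD and 7653 to 7795 CPM in WT of the Zbp1 cohort. It was also lower without overlap on both mutant backgrounds. The sum weighs abundant genes most. Gene by gene, 5xFAD against WT of the Ripk1 cohort gave 8 negative and 3 positive log2 fold changes, with a median of −0.09 and 2 calls. In the Zbp1 cohort all 11 were negative, with a median of −0.23 and 1 call. The levels of the members were therefore set against that sum in each library, a scaling added after the data were seen. Per 1000 CPM of pan-neuronal genes, Gad1 had 30.5 to 37.9 CPM in 5xFAD and 36.9 to 54.8 CPM in WT of the Ripk1 cohort, and 34.9 to 36 CPM in 5xFAD and 34.4 to 42.4 CPM in WT of the Zbp1 cohort, so that the groups overlapped in both. Reln, at 4.3 to 6.15 CPM in 5xFAD and 6.07 to 12.3 CPM in WT of the Ripk1 cohort, overlapped by a narrow margin. The means of 5xFAD on this scale were 51.8% of WT for Reln, 58.9% for Gad2 and 72.7% for Gad1 in the Ripk1 cohort, and 92.4% for Gad1 and 76.3% for Sst in the Zbp1 cohort. No member lay below WT without overlap in either cohort, and Npy and Calb2 lay above WT in the Ripk1 cohort. In Zbp1 KO 5xFAD against Zbp1 KO the 6 members stayed below, with Pvalb at 62%, Npy at 66.2% and Sst at 73.2% of the mean in Zbp1 KO. The share of all genes without overlap was not computed on this scale, so these counts have no share to be set against.

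The 5xFAD effect was compared directly between the cohorts in a fit of all 24 libraries. No gene of 22565 was called, 0% in either direction, so no member differed between cohorts by this test. By DESeq2 0 members and 0.12% of all genes were called, and 5 members and 9.14% of all genes had an unadjusted p under 0.05 in edgeR. The differences, given as Ripk1 cohort minus Zbp1 cohort, were 1.23 ± 0.42 for Calb2, −1.06 ± 0.37 for Reln, −0.70 ± 0.27 for Gad2, 0.66 ± 0.25 for Npy and 0.51 ± 0.24 for Sst, with edgeR adjusted p of 0.416 to 0.531. Without 5xFAD 2 of the Zbp1 cohort, Sst (0.80, edgeR adjusted p = 0.0398) and Npy (0.88, 0.0465) passed the threshold, as did 2.53% of all genes.

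Neither mutation moved a member past the threshold of edgeR on the 5xFAD background; these comparisons share their 5xFAD libraries with those of 5xFAD against WT. In Ripk1 D138N 5xFAD against 5xFAD edgeR called no member and 0.365% of all genes, and DESeq2 called 1 member, Npy, and 1.29% of all genes. At an unadjusted p under 0.05 there were 12.3% of all genes and 3 members, Npy (−0.42 ± 0.11), Reln (0.71 ± 0.29) and Calb2 (−0.67 ± 0.29), with edgeR adjusted p of 0.207, 0.364 and 0.392. Npy had 12.1, 13.5 and 12.8 CPM in Ripk1 D138N 5xFAD, against 19.8, 15.9 and 16 CPM in 5xFAD. Calb2 had 32.7, 27.6 and 14.6 CPM in Ripk1 D138N 5xFAD, against 44.3, 36.2 and 38.6 CPM in 5xFAD. For both genes the highest 5xFAD value was that of 5xFAD 1, the library high in Fos. With each library left out in turn, values ran from −0.48 to −0.32 for Npy and from −0.91 to −0.39 for Calb2. These 2 genes lay below without overlap, as did 7.73% of all genes. Thy1, whose promoter drives the transgenes, also lay lower in the carriers with the mutation, with 1723, 2251 and 1612 CPM in Ripk1 D138N 5xFAD, against 2740, 2295 and 2389 CPM in 5xFAD. Its part in the levels of the members was not tested.

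Gad2 was the 1 member that lay above without overlap, as did 7.4% of all genes, with 148, 125 and 127 CPM in Ripk1 D138N 5xFAD, against 99.1, 75.4 and 120 CPM in 5xFAD. Its log2 fold change was 0.44 ± 0.22 (edgeR adjusted p = 0.443). Reln had 68.2, 30.9 and 67.7 CPM in Ripk1 D138N 5xFAD, against 31.3, 27.9 and 42.8 CPM in 5xFAD. The low value belonged to Ripk1 D138N 5xFAD 2, the library high in Zic1, and without it Reln was called higher (0.99, edgeR adjusted p = 0.0464). That fit called 673 of 22082 genes (3.05%), against 78 of 21376 with all libraries, and without both WT 2 and Ripk1 D138N 5xFAD 2 Reln was not called. The values for the others were 0.21 ± 0.13 for Gad1, 0.18 ± 0.20 for Slc32a1, −0.16 ± 0.13 for Sst, 0.11 ± 0.14 for Pvalb, −0.14 ± 0.22 for Vip and 0.01 ± 0.17 for Lhx6.

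In Ripk1 D138N against WT no member was called by edgeR or DESeq2 and none had an unadjusted p under 0.05, as 2.4% of all genes did, and no gene of the whole table was called (0%). The values ran from −0.37 ± 0.30 for Calb2 to 0.04 ± 0.13 for Sst, and Npy was the 1 member that lay below WT without overlap, as did 4.12% of genes. Without WT 2 Gad1 was at −0.10, Gad2 at −0.03, Slc32a1 at 0.02 and Calb2 at −0.01. The interaction (5xFAD effect with Ripk1 D138N minus the effect without it) was not called for any member in edgeR or DESeq2, which called 0.0281% and 0.388% of all genes. Gad1 (0.45 ± 0.18), Gad2 (0.75 ± 0.31) and Reln (0.93 ± 0.41) had an unadjusted p under 0.05 there, as did 7.47% of all genes, and edgeR adjusted p of 0.656 to 0.661, so a difference between the backgrounds was not shown. Without WT 2 the interaction of Gad2 was 0.47.

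In Zbp1 KO 5xFAD against 5xFAD edgeR and DESeq2 called no member, with 0% and 0.733% of all genes called. At an unadjusted p under 0.05 there were 8.81% of all genes and 2 members, Reln (0.41 ± 0.18, edgeR adjusted p = 0.554) and Gad2 (0.30 ± 0.13, 0.546). Reln had 80.1, 63.7 and 63.9 CPM in Zbp1 KO 5xFAD, against 63.5, 35 and 58.3 CPM in 5xFAD, and lay above without overlap by a small margin, as did 6.4% of genes. Vip, with 10.8, 6.84 and 8.77 CPM in Zbp1 KO 5xFAD, against 11.4, 13.4 and 11.3 CPM in 5xFAD, lay below without overlap, as did 7.89%. Without 5xFAD 2, the low-Malat1 library that held the lowest value of both genes, Reln was at 0.19 and Gad2 at 0.18. Thy1 had 1583, 1485 and 1468 CPM in Zbp1 KO 5xFAD, against 2159, 2040 and 1462 CPM in 5xFAD, with overlap. Gad1 was at 0.11 ± 0.09, Slc32a1 at −0.12 ± 0.18, Sst at −0.13 ± 0.18, Pvalb at −0.24 ± 0.25, Npy at −0.38 ± 0.21, Lhx6 at −0.10 ± 0.16 and Calb2 at 0.15 ± 0.25, and without 5xFAD 2 Pvalb was at 0.23 and Npy at −0.17. In Zbp1 KO against WT no member was called by either tool and none had an unadjusted p under 0.05, where 0% of genes were called in edgeR, 0.0047% in DESeq2 and 3.66% had an unadjusted p under 0.05. The values ran from −0.54 ± 0.25 for Calb2 to 0.34 ± 0.19 for Reln, and without WT 2 Calb2 was at −0.23. Gad2 and Reln lay above WT without overlap, as did 6.21% of genes. The interaction of 5xFAD and Zbp1 KO was called for no gene (0%) in edgeR and for no member in DESeq2, and no member had an unadjusted p under 0.05, as 2.26% of all genes did. The largest value was that of Calb2 (0.69 ± 0.36), which was 0.38 without WT 2.

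Other genes of interneurons and of GABA handling were read from lists made with earlier results of these data known. In 5xFAD against WT of the Ripk1 cohort, 10 of 30 other interneuron genes were lower and 1 higher, with a median of −0.33. Kcnc2 and Kcnc1, potassium channels of fast-spiking cells, were at −0.64 ± 0.12 (edgeR adjusted p = 0.00396) and −0.48 ± 0.10 (0.0072), and Cox6a2, a mitochondrial subunit found in parvalbumin cells, was at 0.99 ± 0.25 (0.0163). Of 8 genes of GABA transport and breakdown 5 were lower, with a median of −0.42. They included Slc6a11, the GABA transporter of astrocytes, at −0.75 ± 0.09 (edgeR adjusted p = 0.000113), and Aldh5a1, which clears the product of GABA breakdown, at −0.42 ± 0.07 (0.0014). Slc6a11 had 104, 114 and 122 CPM in 5xFAD libraries, against 201, 192 and 177 CPM in WT libraries, with no overlap.

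In the Zbp1 cohort none of the 30 and none of the 8 genes was called by edgeR, with medians of −0.16 and −0.14, and 7 and 1 had an unadjusted p under 0.05. Slc6a11 had 146, 188 and 143 CPM in 5xFAD there, against 186, 184 and 171 CPM in WT, and the value above the WT range belonged to 5xFAD 2.

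Markers of other cells were read beside these. In the Ripk1 cohort 2 of 15 genes of hippocampal excitatory neurons, 2 of 11 pan-neuronal genes, 3 of 11 genes of neocortex and subiculum and 2 of 10 genes of thalamus and habenula were lower, and 0 of 10 striatal genes and 0 of 7 choroid plexus genes were called. The summed striatal level was 172 to 228 CPM in 5xFAD and 177 to 221 CPM in WT, and the summed thalamic and habenular level was 161 to 206 CPM in 5xFAD and 188 to 349 CPM in WT, the highest value being that of WT 2. Isl1, a striatal marker chosen here after its values were seen, was at 0 CPM in 5xFAD 2 and in WT 1 and WT 3, and at 2.1 CPM in WT 2. It is 1 of the 10 striatal genes, whose sum did not single out WT 2 (221 CPM), as 5xFAD 1 had 228 CPM. The neocortical and subicular sum was 342 to 388 CPM in 5xFAD and 486 to 511 CPM in WT, with no overlap. The part of dissection in the levels of the members was not tested. All 9 microglial genes were higher in 5xFAD in both cohorts.

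Glial lists moved with the carriers as well. Of 6 oligodendrocyte genes 3 were higher in 5xFAD than in WT of the Ripk1 cohort, their sum being 6175 to 7715 CPM in 5xFAD and 4791 to 5590 CPM in WT with no overlap, and 6 of 6 were higher in Ripk1 D138N 5xFAD against Ripk1 D138N. Astrocyte genes gave 3 higher and 1 lower of 6 in the Ripk1 cohort, and 3 of 6 higher for the Zbp1 cohort, with sums of 7104 to 10658 CPM in 5xFAD and 4882 to 6912 CPM in WT there. In the Zbp1 cohort 1 of 11 pan-neuronal genes and 1 of 10 genes of thalamus and habenula were lower, and edgeR called 0 of 15 genes of excitatory neurons, 0 of 11 of neocortex and subiculum, 0 of 10 of striatum and 0 of 6 of oligodendrocytes. Of the 7 choroid plexus genes of that cohort 0 were called and 7 had positive values, with a median of 0.81 and sums of 51.4 to 4715 CPM in 5xFAD and 137.8 to 4818 CPM in WT. In Zbp1 KO 5xFAD against Zbp1 KO their median was 1.80, with sums of 353 to 2785 CPM in Zbp1 KO 5xFAD and 128 to 1333 CPM in Zbp1 KO. The part of these cells in the levels of the members was not tested.

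**Figure D4:**
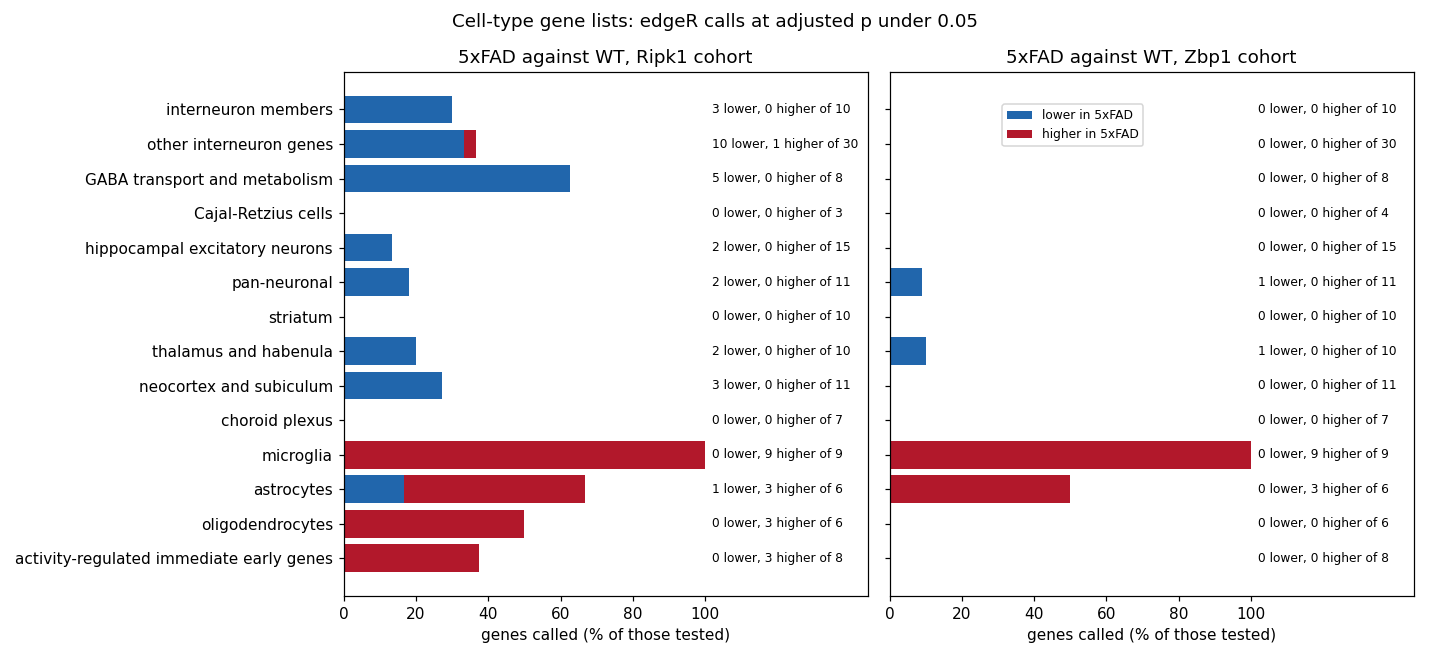
Percent of the tested genes of each list (x axis) that edgeR called lower (blue) or higher (red) in 5xFAD against WT, in the Ripk1 cohort (left) and the Zbp1 cohort (right). In the Ripk1 cohort 3 of 10 interneuron genes and 5 of 8 genes of GABA transport and metabolism were lower, and in the Zbp1 cohort none of either list was.

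**Figure D5:**
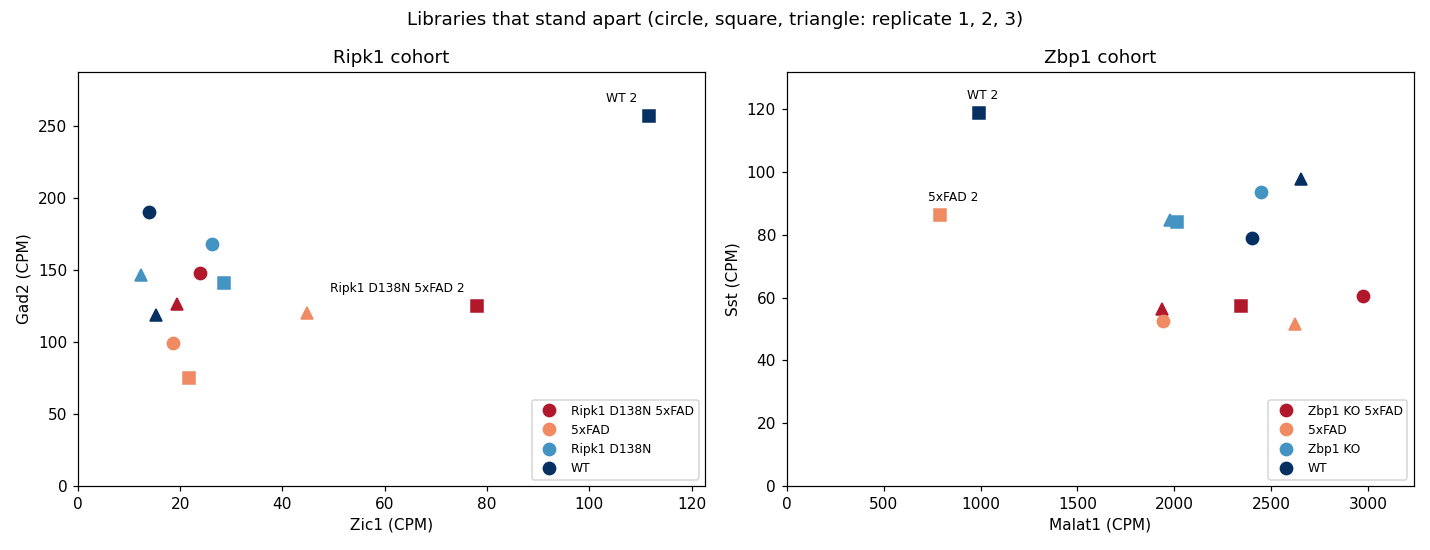
Level of Gad2 against Zic1 in the 12 libraries of the Ripk1 cohort (left) and of Sst against Malat1 in those of the Zbp1 cohort (right), in CPM, with colours for genotype and marker shapes for replicate number. WT 2 had 258 CPM of Gad2 and 112 CPM of Zic1, and 5xFAD 2 had 86.4 CPM of Sst and 791 CPM of Malat1.

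The genes whose levels followed a member most closely were found by the smaller of the 2 correlations of log2 CPM over the 12 libraries of each cohort, which share genotype, depth and dissection. For Gad1 they were Ugcg (r = 0.934 in the Ripk1 and 0.945 in the Zbp1 cohort), Dnajc27 (0.91 and 0.91) and Nap1l5 (0.938 and 0.9). For Gad2 they were Dnm3 (0.969 and 0.945), Nyap2 (0.92 and 0.926) and Csrnp3 (0.919 and 0.965). Reln was followed by Klf12 (0.964 and 0.939), Fzd3 (0.936 and 0.961) and Afdn (0.957 and 0.933). Slc32a1 was followed by Hs3st2 (0.94 and 0.947), Tmem130 (0.921 and 0.883) and Scg5 (0.855 and 0.856), and Sst by Lancl1 (0.844 and 0.905), Dld (0.797 and 0.777) and Alg2 (0.768 and 0.774). None of these genes is in the lists of interneuron genes used here.

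The ZBP1 immunoprecipitates were read for whether transcripts of the members stood out from other gene rows. No control immunoprecipitate, such as one from Zbp1 KO, is among the samples. A ratio near 1 therefore means typical of gene rows and cannot show whether a transcript was bound. Zbp1 RNA was at 0, 0.383 and 0.1 CPM in WT hippocampi of the Zbp1 cohort, and how much of the WT immunoprecipitate is background was not tested. Each condition had 1 input and 1 immunoprecipitate, so there is no test, and intervals cover counting error only. In 5xFAD the members had 3 to 105 reads in the immunoprecipitate and 7 to 159 in the input, and in WT 6 to 92 and 8 to 139. The ratio of immunoprecipitate to input, divided by the median ratio of gene rows, was 0.661 to 1.61 in 5xFAD and 0.6 to 2.25 in WT. No member with at least 10 input reads passed 2-fold in either condition, where 2.36% of gene rows passed it upwards and 6% downwards in 5xFAD, and 2% and 4.91% in WT. Reln, the member with most reads, had ratios of 1.25 (95% exact interval 0.965 to 1.61) in 5xFAD and 1.19 (0.905 to 1.56) in WT. Gad1 had ratios of 1.02 (0.609 to 1.68) in 5xFAD and 0.96 (0.559 to 1.61) in WT. The highest ratio, 2.25 for Sst in WT, rested on 10 reads against 8 and its interval ran from 0.8 to 6.56. All 20 intervals held 1. The upper bounds of Gad1, Gad2 and Reln were under 2 in both conditions. Those of Sst, Npy and Calb2 were above 2 in both, so that for these 3 genes a 2-fold enrichment lay within counting error. Upper bounds were above 2 in 1 condition for Pvalb (3.23 in 5xFAD), Slc32a1 (3.75 in WT), Vip (2.81 in WT) and Lhx6 (2.23 in WT).

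The authors' deposited table of 5xFAD over WT in the Ripk1 cohort gives adjusted p-values under 0.05 for 5 members: Gad1 (log2 fold change −0.65), Gad2 (−0.95), Slc32a1 (−0.56), Reln (−1.14) and Lhx6 (−0.45, adjusted p = 0.047). In the authors' deposited table of 5xFAD over WT in the Zbp1 cohort, Gad1 (−0.36, adjusted p = 0.00403) and Sst (−0.64, 0.0104) are under that level. The authors' deposited tables of 5xFAD over Ripk1 D138N 5xFAD and of 5xFAD over Zbp1 KO 5xFAD, which run with 5xFAD on top, give no member an adjusted p under 0.05, the smallest being 0.146 for Npy.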

How the data were processed

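Per the labels, polyadenylated RNA was sequenced in 24 hippocampal libraries. For each cohort the authors deposited raw counts by Ensembl gene ID and, per the file headers, their own comparisons as log2 fold changes with p-values before and after adjustment. The immunoprecipitation counts were deposited in a table by gene symbol and repeat family. Per the submitters' processing notes the tools were HISAT2, DESeq2 1.42.1 and edgeR 4.0.16, and both mm10 and mm39 are named, so gene coordinates are given only for RefSeq promoter windows. Counting options and use of strand were not given in the sources used here, and reads of Gad1os, on the opposite strand of Gad1, numbered 0 to 26 per library. Levels are not compared between genes, because no transcript lengths were used.

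R 4.3.3, edgeR 4.0.16 and DESeq2 1.42.0 were used. Of 55487 gene IDs 55141 matched a symbol. The 12 libraries of a cohort were fitted together (filterByExpr, TMM, quasi-likelihood test, 1 mean per genotype), with 21376 genes tested in the Ripk1 and 21274 in the Zbp1 cohort and Benjamini-Hochberg adjustment over all of them. A gene was called at an adjusted p under 0.05. SE is the absolute log2 fold change divided by the square root of F. Likeness used log2 CPM with a prior count of 2 over 20680 genes. Intervals of immunoprecipitate ratios are exact binomial at 95%, and gene rows needed 10 input reads. The fit was also run on counts simulated from its own model. Those counts hold no libraries that stand apart, so that run does not bear on how far calls depend on single libraries. Replicates differed by more than sampling noise.

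The members and all gene lists were chosen with earlier results of these data known. All 10 members were named in every comparison, at most 2 called genes in each direction from other lists, and the 3 genes of greatest likeness for each member described so. Alternatives were other scalings, no filter, DESeq2, the groups of the contrast alone, a replicate block and each library left out. Those added after seeing the data were pairs of libraries left out, the average over both backgrounds and the scaling to pan-neuronal genes. Heat-map tables and the authors' immunoprecipitation comparison were not used here.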

Additional observations from a re-analysis of the deposited data

How the results depend on the processing

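Percentages in brackets here are the share of all genes called in the same setting. The count of members called by edgeR in 5xFAD against WT of the Ripk1 cohort was 3 (16.1%). It was 1 to 5 when each library was left out in turn: 1 without 5xFAD 2 (7.98%) and 5 without WT 3 (12.9%). Under the other settings it was within 1.5 times of 3, at shares from 9.64% (no filter) to 20% (DESeq2). In the Zbp1 cohort the count of 0 (3.13%) became 2 with no filter on low counts (2.84%) and 2 with DESeq2 (4.86%). It was 3 without WT 2 and 5xFAD 2 (5.09%) and 3 as the average over both backgrounds (4.87%). When libraries were left out it was 0 to 5, with 5 in the fit without 5xFAD 2 (4.96%). In Zbp1 KO 5xFAD against Zbp1 KO the count of 0 (1.23%) became 5 with no filter (1.73%) and 3 with DESeq2 (2.4%). It was 5 with the groups of the contrast alone (4.41%) and 5 without WT 2 and 5xFAD 2 (2.65%). When libraries were left out it was 0 to 4, with 4 in the fit without 5xFAD 2 (1.74%). In Ripk1 D138N 5xFAD against 5xFAD the count of 0 (0.365%) became 1 with no filter (1.03%) and 1 with DESeq2 (1.29%). When libraries were left out it was 0 to 1, with 1 in the fit without Ripk1 D138N 5xFAD 2 (3.05%). For the difference between cohorts the count of 0 (0%) became 3 with no filter (0.476%). When libraries were left out it was 0 to 2, with 2 in the fit without 5xFAD 2 of the Zbp1 cohort (2.53%). The counts for the other 6 contrasts were 0 under every setting run. The cause was not tested. Members below without overlap numbered 0, 1 and 0 relative to the pan-neuronal sum in 5xFAD against WT (Ripk1 cohort), Ripk1 D138N 5xFAD against Ripk1 D138N and 5xFAD against WT (Zbp1 cohort), against 3, 3 and 1 in CPM, and 6 on both scales in Zbp1 KO 5xFAD against Zbp1 KO. On that scale Reln and Gad2 of the Ripk1 cohort stayed at 51.8% and 58.9% of WT, and the share of all genes without overlap was not computed. No member called under any setting changed sign under another.

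No label pairs libraries by replicate number, and the main fit had no block. Deviations of same-numbered libraries correlated at −0.218 to 0.243 (median 0.025) over 18 pairs in the Ripk1 cohort and −0.111 to 0.402 (median 0.072) in the Zbp1 cohort. Libraries of different numbers had medians of −0.013 and −0.037. The low-Malat1 libraries of the Zbp1 cohort, WT 2 and 5xFAD 2, share a number. So do the high-Zic1 libraries of the Ripk1 cohort, WT 2 and Ripk1 D138N 5xFAD 2. Shared handling by number was not tested. With the replicate number as a block, 3 members and 16.8% of all genes were called in 5xFAD against WT of the Ripk1 cohort. In that of the Zbp1 cohort 1 member (Sst, edgeR adjusted p = 0.0291) and 3.63% of all genes were called. The other contrasts gave 0 members.

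With 3 libraries per genotype, 1 library decides several calls (Gad2 and Reln in the Ripk1 cohort, and Sst, Pvalb, Slc32a1, Gad1 and Calb2 in the Zbp1 cohort). Depth limits Vip, Npy, Lhx6 and Pvalb in WT 1 of the Zbp1 cohort, and all members in the immunoprecipitates.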
